A study of Rattus norvegicus with 16 samples.

Results

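The comparison described here is that of the mammary gland at postnatal day (PND) 50 with the gland at PND35 in female Wistar Han rats that had been exposed to a mixture of genistein and vinclozolin before weaning. Its members, chosen by the sample titles, are 4 of the 16 arrays of the series, 2 for each age. Genistein, a phytoestrogen from soy, acts through estrogen receptors. Vinclozolin is a fungicide whose metabolites block the androgen receptor. The mixture groups received 1 mg of genistein and 1 mg of vinclozolin per kg body weight per day, given by gavage to the mother from gestational day 1 until weaning at PND21. The other groups, each collected at PND50 and at PND35, were daughters of mothers given 1 mg per kg of genistein alone or 1 mg per kg of vinclozolin alone, and untreated controls. All animals ate a purified diet free of phytoestrogens, and the labels state that 1 daughter per litter was taken. With 15 mothers and 20 pooled daughters per exposure, some daughters must have shared a mother, within or between the ages, and the labels do not say which. RNA of 5 animals was pooled for each array, which averages over them and hides their spread. The labels describe the offspring as pubertal or cycling, and the stage of the estrous cycle at collection is not given in the sources used here.

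Between these ages the rat mammary gland passes from pubertal growth to the young adult cycling state. In puberty, ducts lengthen through the fat pad from dividing terminal end buds, driven by ovarian estrogen, growth hormone and local growth factors. Later the end buds regress to ducts and alveolar buds, and the epithelium responds to progesterone and prolactin. The gland lies in adipose and fibrous stroma under the skin and next to skeletal muscle, with resident immune cells, and RNA of all of these enters a whole-gland sample.

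Values are log2 intensities of probe sets, as read from their range. The 16 arrays had medians between 7.05 and 7.145 and correlated between 0.9893 and 0.9966 within groups. The 2 mixture pools correlated at 0.9962 at PND50 and at 0.9959 at PND35, against 0.981 to 0.9892 between the ages, over all 27342 probe sets. All 21 luminal markers lay above the filter on dim genes, but so did 11796 of the 14324 named genes. The filter uses the mean of all 16 arrays, so this alone does not show that the markers were present. The number of arrays limits the precision, and the p-values rest on the spread among pools, not among single animals.

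After the mixture, 3852 of the 11796 named genes tested passed an adjusted p of 0.05 between the ages (limma, two-sided, Benjamini-Hochberg), which is 32.7% of all genes. Of these, 1697 were higher at PND50 (14.4%) and 2155 were lower (18.3%), and all counts over gene lists below are to be read against these shares. The log2 fold change (PND50 minus PND35, used throughout) had a median of -0.002 over all genes and a median standard error of 0.0941. It was above 1 for 74 genes and below -1 for 140 genes. The PND50 and PND35 pools did not overlap in 8599 genes (72.9%). Without mixture PND50 replicate 2, 1596 genes passed, and without mixture PND35 replicate 2, 1602 genes passed. Of those, 1570 and 1568 were among the 3852 with the same direction.

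The 12 highest differences by the naming rule lay between 1.79 and 2.99 on the log2 scale. Reg3b, a secreted lectin that binds bacteria, had 7.88 and 8.25 log2 units in the PND50 pools, against 5.23 and 4.91 in the PND35 pools. Both later pools lay above both earlier ones, by 2.99 on the log2 scale (SE 0.29, adjusted p = 0.000232). The PND35 values lie below 5.661, the 25th percentile of all probe sets, where background may hold a value up, so its true ratio may be larger than 7.96-fold. Slc5a8, a sodium-coupled transporter of lactate and short-chain fatty acids, had 9.89 and 9.99 at PND50, against 7.75 and 7.25 at PND35, a 5.43-fold difference (log2 2.44, SE 0.19, adjusted p = 0.00011). Its 4 pools lay well above the filter, and the gap between the ages was several times the gap between replicates.

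Gfra3, a receptor for the neurotrophic factor artemin, had 10.64 and 10.65 at PND50, against 8.49 and 8.66 at PND35. Tf, which encodes the iron carrier transferrin, had 12.58 and 12.51 at PND50, against 10.67 and 10.77 at PND35. Vtcn1, an inhibitory ligand of the B7 family found on epithelium, had 10.54 and 10.68 at PND50, against 8.66 and 8.76 at PND35. In all 3 genes the replicates differed little and the ages did not overlap, with log2 fold changes of 2.07 (SE 0.25), 1.82 (SE 0.14) and 1.90 (SE 0.17). Tacr1, the substance P receptor, rose by 1.92 (SE 0.18), and Cd7, a surface antigen of lymphocytes, rose by 1.97 (SE 0.14). The rest of the 12 highest were Kcnh1 at 1.91, a voltage-gated potassium channel, Hspa4l at 1.79, a heat shock protein of the Hsp110 family, Scgb2a1 at 1.93, a secretoglobin, Fgg at 2.06, the gamma chain of fibrinogen, and Abca13 at 1.99, an ABC transporter. Fgg and Abca13 were the least certain. Abca13 had adjusted p-values of 0.0575 to 0.0672 with any 1 of the 4 mixture pools left out, and Fgg had 0.0772 without PND50 replicate 2 and 0.0538 without PND35 replicate 2.

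**Figure D1:**
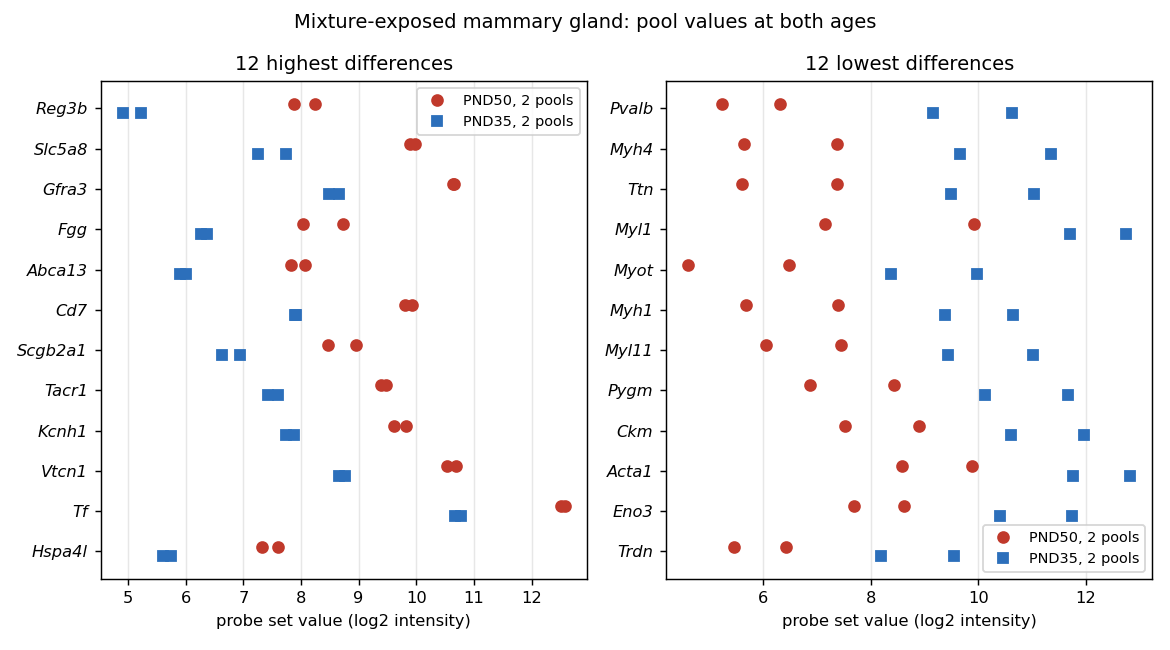
Log2 intensity of the 2 PND50 pools (circles) and the 2 PND35 pools (squares) of mixture-exposed glands for the 12 genes with the highest and the 12 with the lowest log2 fold change among genes past the threshold. Among the highest genes Gfra3, Tf and Vtcn1 had close replicates, and those of Slc5a8 at PND35 and Fgg at PND50 lay further apart. Most of the lowest, which are skeletal muscle genes, had replicates more than 1 log2 unit apart.

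Epithelial genes were higher at PND50. Of 21 luminal markers, 16 rose and none fell, with a median log2 fold change of 0.62. In 20 of them both PND50 pools lay above both PND35 pools (35.5% of all genes did). Elf5, a transcription factor of alveolar progenitors, had 10.60 and 10.54 at PND50, against 9.59 and 9.70 at PND35. Kit, a receptor of luminal progenitors that also stands in the mast cell list, had 9.58 and 9.55 at PND50, against 8.53 and 8.43 at PND35. In both genes the ages were about 1 log2 unit apart with no overlap. Prom1 rose by 1.30 and Muc1, an apical mucin, by 1.11, and the transcription factors Elf3 and Ehf each rose by 0.70. The luminal keratin Krt8, with 9.91 and 10.00 at PND50 and 9.90 and 9.86 at PND35, did not pass (log2 0.07, SE 0.09, adjusted p = 0.572). A whole-gland array cannot tell a change in the number of cells of a type from a change in RNA per cell.

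Of 14 basal and myoepithelial markers, 6 rose and none fell, with a median of 0.24. The contractile gene Cnn1 had 10.65 and 10.63 at PND50, against 9.97 and 9.89 at PND35, and rose by 0.71 (SE 0.12). Itgb4, a hemidesmosome subunit, rose by 0.54 (SE 0.10). Krt14, the basal keratin, had 8.78 and 8.65 at PND50 and 8.68 and 8.70 at PND35, with a log2 fold change of 0.02 (SE 0.27).

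Of 19 genes of milk proteins and secretion, 10 rose and none fell, with a median of 0.38. Lalba, the alpha-lactalbumin needed for lactose synthesis, had 12.59 and 12.72 at PND50, against 11.39 and 11.43 at PND35, a 2.38-fold difference (SE of the log2 value 0.12, adjusted p = 0.000232). Btn1a1, a milk fat globule protein, had 11.69 and 11.62 at PND50, against 10.39 and 10.40 at PND35. Csn1s2b, a casein, rose by 1.22 from values near the filter, and Muc15 by 1.04. Csn2, the major casein of rat milk, had 9.07 and 7.91 at PND50 and 8.33 and 8.99 at PND35. Its pools overlapped and its log2 fold change of -0.17 had a standard error of 0.98 (adjusted p = 0.91). Wap, whey acidic protein, had 8.56 and 8.47 at PND50 and 7.37 and 7.90 at PND35, which did not pass (log2 0.89, SE 0.40, adjusted p = 0.106). Members of the milk list therefore differed in precision: Lalba and Btn1a1 had close replicates, and the Csn2 replicates differed by more than the ages did.

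Hormone receptors and growth factor genes of the epithelium went both ways. Of 20 such genes, 8 rose and 1 fell, the ligand gene Wnt4 (-0.40, SE 0.11), with a median of 0.06. The 8 became 4 without replicate 1 of either age and 3 without replicate 2 of either age. Wnt4 lost the call without PND35 replicate 1 (adjusted p = 0.103) or either PND50 pool (adjusted p = 0.0591 and 0.0893). Igfbp5, a binding protein of insulin-like growth factors, had 13.01 and 13.05 at PND50, against 12.37 and 12.26 at PND35, and rose by 0.71 (SE 0.07). Erbb3, a receptor of the epidermal growth factor family, rose by 0.72 (SE 0.11). Esr1, estrogen receptor alpha, had 10.56 and 10.70 at PND50, against 10.35 and 10.10 at PND35, which is 0.41 higher (SE 0.13, adjusted p = 0.0375). That call was lost without PND35 replicate 2 (0.28, adjusted p = 0.244), PND50 replicate 1 (0.48, adjusted p = 0.065) and PND50 replicate 2 (0.34, adjusted p = 0.192), and with median centring (adjusted p = 0.0535). The progesterone receptor Pgr (0.07, SE 0.32), the prolactin receptor Prlr (0.31, SE 0.14), the growth hormone receptor Ghr (-0.08, SE 0.11) and Areg, the main ductal ligand of the epidermal growth factor receptor (-0.71, SE 0.26, adjusted p = 0.0589), did not pass. The androgen receptor has no named probe set here.

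**Figure D2:**
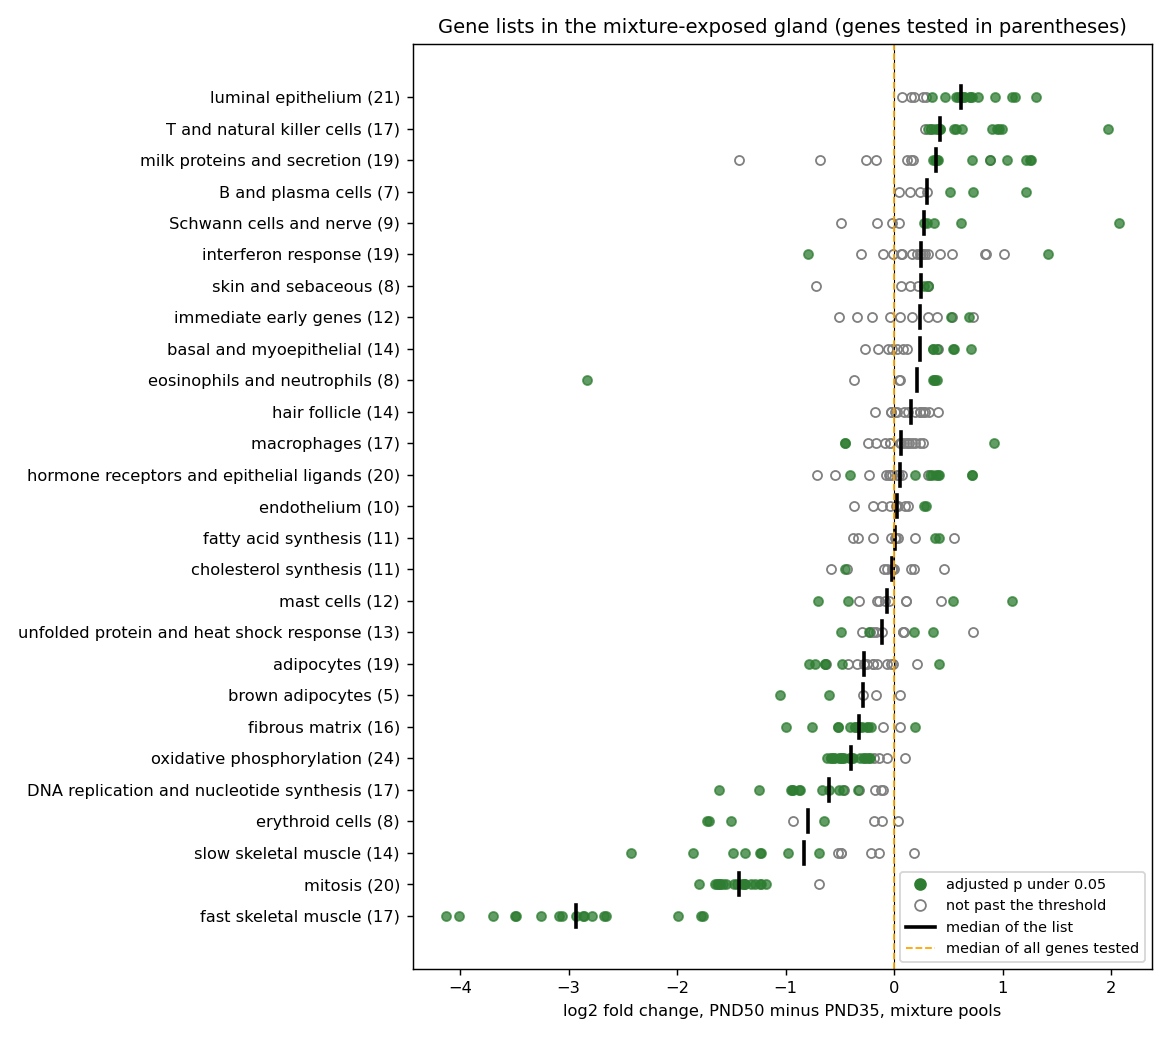
Log2 fold change (PND50 minus PND35, mixture pools) of each tested member of the 27 gene lists. Filled points passed an adjusted p of 0.05, open points did not, black bars are list medians and the dashed line is the median of all genes. The fast and slow skeletal muscle, mitosis and erythroid lists lie to the left and the luminal and the T and natural killer cell lists to the right.

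Genes of cell division were lower at PND50. Of 20 genes of mitosis, 19 fell and none rose, with a median of -1.43, and all 20 had PND50 pools below both PND35 pools (37.4% of all genes did). Aurka, a spindle kinase, was the member that did not pass (-0.69). Kif11, the motor that separates the spindle poles, had 6.94 and 6.98 at PND50, against 8.61 and 8.56 at PND35, and fell by 1.63 (SE 0.20, adjusted p = 0.00054). Top2a, the topoisomerase of dividing cells, had 8.11 and 8.14 at PND50, against 9.74 and 9.72 at PND35. Ndc80, a kinetochore protein, had 6.19 and 6.01 at PND50, against 7.80 and 7.99 at PND35, and fell by 1.79, the most of the list. In each of these genes the ages were more than 1.5 log2 units apart and the replicates lay close together. With any 1 of the 4 mixture pools left out, 19 of the 20 still passed.

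The upstream sequences of the 6 mitosis genes with the smallest p are shown because these genes moved together. Many mitotic promoters are known to carry CCAAT boxes, bound by the factor NF-Y, and the CHR element TTTGAA, bound by the DREAM complex and B-Myb. Each run is the 250 bases before the annotated start (RefSeq, GRCr8), on the gene's strand, with CCAAT or its reverse complement ATTGG and TTTGAA or its reverse complement TTCAAA in capitals.
Kif11: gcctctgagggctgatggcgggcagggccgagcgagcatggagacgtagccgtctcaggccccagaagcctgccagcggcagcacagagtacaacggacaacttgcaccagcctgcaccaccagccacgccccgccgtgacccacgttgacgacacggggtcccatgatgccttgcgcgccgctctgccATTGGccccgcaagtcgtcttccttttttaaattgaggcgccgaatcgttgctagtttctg
Prc1: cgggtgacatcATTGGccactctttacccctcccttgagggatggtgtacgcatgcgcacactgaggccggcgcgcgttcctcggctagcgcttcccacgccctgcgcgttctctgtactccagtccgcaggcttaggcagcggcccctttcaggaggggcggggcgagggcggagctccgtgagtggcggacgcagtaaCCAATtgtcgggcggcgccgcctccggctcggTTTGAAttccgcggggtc
Cdc20: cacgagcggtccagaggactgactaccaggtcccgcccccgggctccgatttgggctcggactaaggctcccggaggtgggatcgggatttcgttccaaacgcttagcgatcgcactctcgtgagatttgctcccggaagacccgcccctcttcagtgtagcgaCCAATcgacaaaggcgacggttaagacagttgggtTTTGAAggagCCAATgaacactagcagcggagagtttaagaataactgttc
Ccnb2: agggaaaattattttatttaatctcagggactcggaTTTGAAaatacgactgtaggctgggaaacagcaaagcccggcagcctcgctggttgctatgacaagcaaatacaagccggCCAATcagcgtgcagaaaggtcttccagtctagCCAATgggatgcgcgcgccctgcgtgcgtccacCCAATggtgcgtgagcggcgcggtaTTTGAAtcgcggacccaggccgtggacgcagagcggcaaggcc
Bub1b: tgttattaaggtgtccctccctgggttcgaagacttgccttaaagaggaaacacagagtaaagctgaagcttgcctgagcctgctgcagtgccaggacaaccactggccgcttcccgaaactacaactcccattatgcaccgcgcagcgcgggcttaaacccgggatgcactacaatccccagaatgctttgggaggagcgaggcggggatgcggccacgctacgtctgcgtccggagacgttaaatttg
Ndc80: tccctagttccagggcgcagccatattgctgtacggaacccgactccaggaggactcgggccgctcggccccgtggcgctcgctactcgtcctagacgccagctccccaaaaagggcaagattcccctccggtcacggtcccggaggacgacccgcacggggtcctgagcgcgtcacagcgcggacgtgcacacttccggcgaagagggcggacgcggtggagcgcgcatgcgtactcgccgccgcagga
They lie at chr1:244536617-244536866 (plus strand) for Kif11, chr1:143659231-143659480 (plus strand) for Prc1, a cross-linker of the midzone, chr5:137255800-137256049 (minus strand) for Cdc20, an activator of the anaphase-promoting complex, chr8:79981659-79981908 (minus strand) for Ccnb2, a B-type cyclin, chr3:126016817-126017066 (plus strand) for Bub1b, a spindle checkpoint kinase, and chr9:118887530-118887779 (minus strand) for Ndc80. Kif11 held 1 CCAAT match, Prc1 and Cdc20 held 2 each with 1 TTTGAA match, and Ccnb2 held 3 with 2 TTTGAA matches. No marked matches overlapped each other. Bub1b and Ndc80 held no match in this window. Of the 20 mitosis genes tested, 17 had an entry in the table, and 12 of them (70.6%) held CCAAT on either strand, against 9416 of 27457 promoters of the same length (34.3%). TTTGAA on either strand stood in 6 of the 17 (35.3%), against 4402 of all promoters (16%). A match is a description of letters, and binding was not measured.

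DNA synthesis genes were lower as well. Of 17 genes of DNA replication and nucleotide synthesis, 12 fell and none rose, with a median of -0.60. Tyms, which makes thymidylate, had 8.20 and 8.09 at PND50, against 9.04 and 9.11 at PND35, and fell by 0.93 (SE 0.10). Rrm2, a subunit of ribonucleotide reductase, fell by 1.61 (SE 0.33), Uhrf1, which maintains DNA methylation at replication, by 1.24 (SE 0.22), and Pcna, the polymerase clamp, by 0.94 (SE 0.19). The count was 5 without PND35 replicate 2, 7 without PND50 replicate 1 and 8 without PND50 replicate 2.

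Skeletal muscle genes had the lowest differences. All 17 tested fast muscle genes fell, with a median of -2.93, and the 12 lowest genes by the naming rule are all genes of the sarcomere, its calcium handling or muscle energy supply (Pvalb, Myh4, Ttn, Myl1, Myot, Myh1, Myl11, Pygm, Ckm, Acta1, Eno3 and Trdn). Pvalb, a calcium buffer of fast fibres, had 6.30 and 5.23 at PND50, against 9.15 and 10.63 at PND35, and fell by 4.13 (SE 0.48). Myh4, the fast IIb myosin heavy chain, had 7.37 and 5.63 at PND50, against 9.65 and 11.36 at PND35, and fell by 4.01 (SE 0.66). The ages did not overlap, but replicate 2 was the lowest pool at PND50 and the highest at PND35, each by more than 1 log2 unit. Of 14 slow muscle genes, 8 fell, among them the calcium store protein Casq2 by 1.37 and Myh7, the slow myosin, by 0.98. For Myh7 the PND50 pools had 6.44 and 6.41, against 6.92 and 7.90 in the PND35 pools.

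The fast muscle score, the mean of the list's centred values in a pool, was -0.915 and -1.954 in the mixture PND50 pools, against 0.797 and 2.278 in the mixture PND35 pools. The control pools had -0.923 and -1.053 at PND50 and 0.175 and 0.317 at PND35, and the genistein pools -1.177 and -0.55 at PND50 and 0.455 and 1.062 at PND35. The vinclozolin ages overlapped, with 1.347 and 0.015 at PND50 and -0.113 and 0.238 at PND35. The mixture pools thus held both the lowest and the highest muscle score of the 16. With the score as a covariate, no gene passed in the mixture (smallest adjusted p 0.0976, and 1264 genes at an unadjusted p under 0.05), the mitosis median was -1.22, and the luminal median was 0.47. The score separates the mixture ages, so in that fit age and muscle RNA cannot be told apart. With the muscle list genes removed from the table, 3830 genes passed. Each gene is fitted on its own, so this removal could hardly change the calls of the others. It says nothing about muscle RNA in them, and muscle genes outside the lists, such as Ttn, Myot and Trdn, stayed in.

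**Figure D3:**
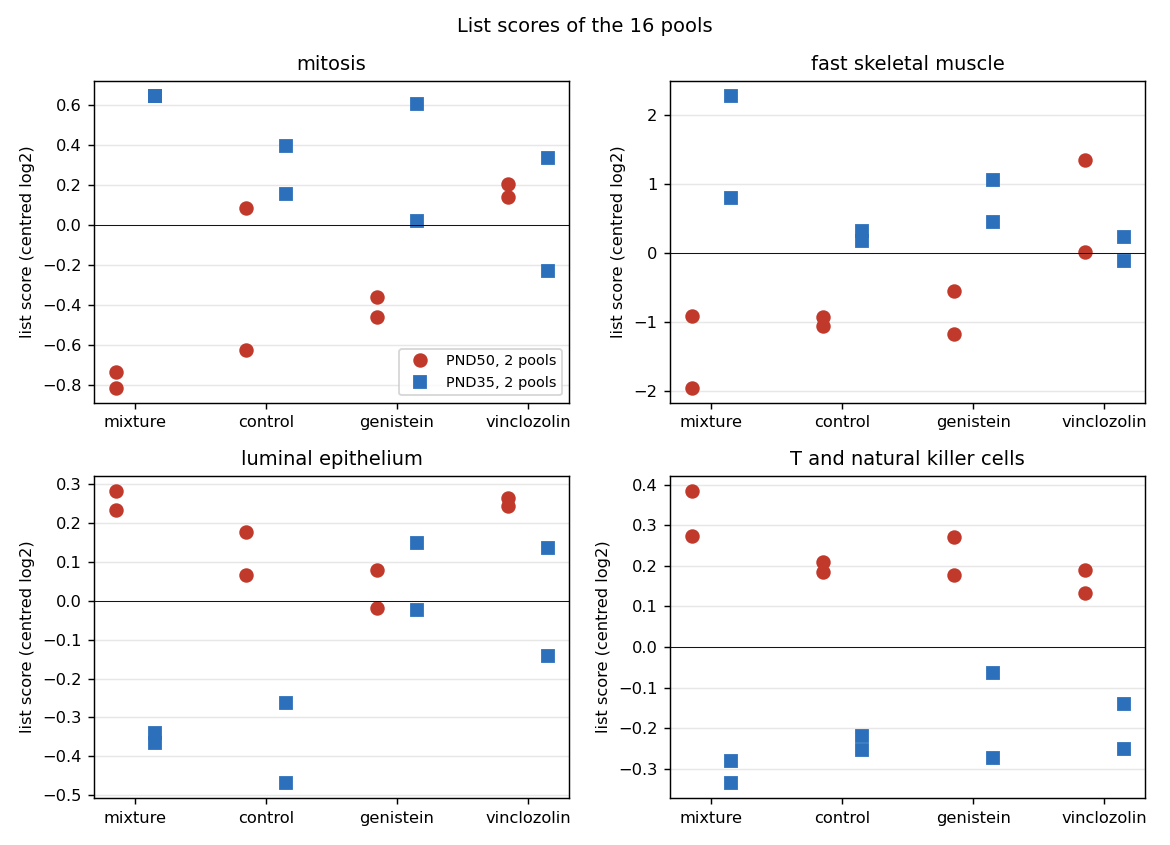
Scores of 4 gene lists (mean of centred log2 values) in the PND50 pools (circles) and PND35 pools (squares) of each exposure. After the mixture the ages are apart in all 4 lists, and the vinclozolin ages overlap in mitosis and fast muscle.

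Lymphocyte genes were higher at PND50. Of 17 T and natural killer cell markers, 15 rose and none fell, with a median of 0.42. A further 4 of the list, Cd3d, Cd3g, Cd2 and Cd8b, lay under the filter. Cd3e, a subunit of the T cell receptor complex, had 7.02 and 7.25 at PND50, against 6.19 and 6.16 at PND35. Nkg7, a protein of cytotoxic granules, had 7.51 and 7.77 at PND50, against 6.56 and 6.73 at PND35. Both rose by close to 1 log2 unit (0.96 and 1.00) without overlap. Of 7 B and plasma cell markers, 3 rose and none fell. Jchain, which joins polymeric antibodies, rose by 1.22 (SE 0.15), with 6.36 and 6.85 at PND50, against 5.53 and 5.25 at PND35. Its PND35 values lie under the filter value of 5.661, where background may hold a value up. Fcrla rose by 0.73 (SE 0.10).

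Myeloid and mast cell markers did not move as groups. Of 17 macrophage markers, Cd14 rose, Mrc1 and Cd163 fell, and the median was 0.06. Cd14, the co-receptor for bacterial lipopolysaccharide, had 11.08 and 10.99 at PND50, against 10.05 and 10.17 at PND35 (log2 0.92, SE 0.11, adjusted p = 0.000488). The falls of the scavenger receptors Mrc1 and Cd163, by 0.45 each, did not pass in any of the 4 fits that left out a mixture pool (adjusted p 0.0571 to 0.198). Of 12 mast cell markers, 2 rose and 2 fell, with a median of -0.07. Hdc, which makes histamine, had 7.80 and 8.05 at PND50 and 8.03 and 7.99 at PND35, with overlap (log2 -0.09, SE 0.09). The tryptases Tpsb2 (-0.43) and Tpsab1 (-0.71) fell while Kit and the receptor Mrgprx2 (0.54) rose, and the tryptases and Mrgprx2 each lost the call in 3 of those 4 fits. Near-identical family members can share a probe set, which bears on tryptases, globins and myosins.

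Alox15, a lipoxygenase of eosinophils and macrophages, had 7.60 and 6.95 at PND50, against 10.16 and 10.05 at PND35, and fell by 2.83 (SE 0.31, adjusted p = 0.000398). It stood far from the other 7 tested eosinophil and neutrophil genes, 4 of which rose, by 0.40 or less. Those 4 calls became 3 without PND35 replicate 1, 0 without PND35 replicate 2, 1 without PND50 replicate 1 and 2 without PND50 replicate 2. Erythroid genes fell where they passed: 4 of 8, none higher, median -0.79. The list median was -0.70 in controls, -0.82 after genistein and -0.91 after vinclozolin, so the fall was not particular to the mixture. Hbb, a globin chain, had 11.06 and 10.44 at PND50, against 12.40 and 12.50 at PND35, and fell by 1.70 (SE 0.19). Alas2, the first enzyme of heme synthesis in red cells, fell by 1.72 (SE 0.23) and Slc4a1, the red cell anion exchanger, by 1.5 (SE 0.28). Hemgn, also in the list, fell by 0.65, and lost the call with any 1 mixture pool left out (adjusted p 0.0945 to 0.142).

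Of 16 genes of the fibrous matrix, 13 fell and 1 rose, with a median of -0.32. Col12a1, a fibril-associated collagen, had 8.93 and 9.17 at PND50, against 9.85 and 10.24 at PND35, and fell by 0.99 (SE 0.17). Col5a2 fell by 0.76 (SE 0.11), and the major fibrillar chains Col1a2 and Col3a1 fell by 0.52 and 0.51 (SE 0.10 each). Between 5 and 7 of these genes fell with 1 mixture pool left out, the count being 5 without PND35 replicate 2 or either PND50 pool and 7 without PND35 replicate 1.

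Of 19 adipocyte genes, 5 fell and 1 rose, with a median of -0.28. Adipoq, the adipocyte hormone adiponectin, had 12.72 and 12.59 at PND50 and 12.75 and 12.68 at PND35, with a log2 fold change of -0.07 (SE 0.10). Cd36, a fatty acid carrier, fell by 0.64 and Cebpa, an adipocyte transcription factor, by 0.73. No adipocyte gene fell past the threshold without PND50 replicate 2, 1 did without PND35 replicate 2, and 3 did without each of the other mixture pools. In the brown fat list, 2 of 5 genes fell. One was Cox8b, with 5.77 and 5.59 at PND50 and 6.06 and 7.42 at PND35. Without PND35 replicate 2, the pool with the highest muscle score, its difference was -0.38, in place of -1.06. Cpt1b, the other, is also a muscle gene and was -0.38 without PND35 replicate 2, in place of -0.60. The part of muscle RNA in these calls was not tested. Ucp1 and Zic1 lay under the filter and Cidea and Prdm16 have no named probe set, so the genes tested say little about brown fat.

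Of 24 genes of oxidative phosphorylation, 20 fell and none rose, over a narrow range of small differences, with a median of -0.40. Ndufb5, of complex I, had 9.89 and 9.83 at PND50, against 10.30 and 10.44 at PND35, and fell by 0.51 (SE 0.07). Sdhb, of complex II, fell by 0.41 (SE 0.07) and Atp5mc1, of the ATP synthase, by 0.62 (SE 0.12). The count was 9 without PND35 replicate 2 and 11 without PND50 replicate 2. The muscle score moved with this list in the mixture pools, and with the score as covariate the list median was -0.21. After vinclozolin the median was -0.18 for this list and 0.58 for fast muscle. The part of muscle RNA in this result was not tested.

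The remaining lists held few calls. In fatty acid synthesis 2 of 11 genes rose, and in cholesterol synthesis 1 of 11 fell, which was the squalene epoxidase Sqle (-0.46, SE 0.09). In endothelium 2 of 10 rose, in Schwann cells and nerve 5 of 9 rose, including Gfra3 and Sox10 (0.61, SE 0.09), and in skin 2 of 8 rose. The Schwann cell count was 2 in each fit without a mixture pool, and in those fits the fatty acid count was 0 and the endothelium and skin counts were 0 or 1. For the hair follicle list no count is given, because 4 of the 14 genes tested lay under the filter in the mixture pools and were admitted through the vinclozolin PND35 pools. Among immediate early genes 2 of 12 rose, Junb by 0.69 (SE 0.14) and Zfp36 by 0.52 (SE 0.12), the second with an adjusted p of 0.0671 without PND50 replicate 2. The unfolded protein and heat shock list had 2 higher and 2 lower of 13, and at most 1 in each direction without a mixture pool. Of 19 interferon response genes 1 rose and 1 fell. The lower one was Rsad2, an antiviral enzyme (-0.79, SE 0.24), which lost the call in 3 of the 4 fits without a mixture pool (adjusted p 0.0537 to 0.163). The higher one, the antiviral GTPase Mx2, had 8.45 and 9.79 at PND50, against 7.40 and 8.02 at PND35, where replicate 2 was the higher pool at both ages. Without PND50 replicate 2 its difference was 0.75 (adjusted p = 0.178), and without PND50 replicate 1, 6 genes of the list passed as higher.

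With 1 mixture pool left out at a time, fewer genes passed over the whole table. List counts from such fits, given above, are therefore not to be read against the shares of the full fit. Fewer luminal, T and natural killer cell, milk and basal genes passed in each of these 4 fits as well. The luminal median lay between 0.57 and 0.67 over these fits, and the T and natural killer cell median between 0.41 and 0.55. The milk median lay between 0.33 and 0.42 and the basal median between 0.22 and 0.24. The fast muscle median lay between -3.63 and -2.35 and the slow muscle median between -1.325 and -0.369. All these fits kept the sign of the medians of the lists just named. Medians of the interferon, fatty acid, endothelium and mast cell lists changed sign in some of them. The interferon median, 0.249 in the full fit, was -0.018 without PND35 replicate 1 and -0.016 without PND50 replicate 2.

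The other exposures allow the age difference after the mixture to be set beside theirs. Between PND50 and PND35, 102 genes passed in controls (0.865%), 327 after genistein (2.77%) and 328 after vinclozolin (2.78%), against 3852 after the mixture. The standard deviation of the log2 fold change over all genes was 0.365 after the mixture, and it was 0.212 in controls, 0.219 after genistein and 0.277 after vinclozolin. Differences larger than 1 log2 unit numbered 214 after the mixture, 43 in controls, 49 after genistein and 115 after vinclozolin. Such counts are not a test of whether exposures differ. These age comparisons share no pools, but 1 estimate of the spread per gene serves all of them.

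Of the genes called in controls, 90 were also called after the mixture in the same direction, which is 88.2% of the control calls and 2.34% of the mixture calls. For genistein the shared genes numbered 271, 82.9% of its calls and 7.04% of the mixture calls. No gene was called in opposite directions in either pair. For vinclozolin 159 were shared in direction, 48.5% of its calls and 4.13% of the mixture calls, and 16 were called in opposite directions. A larger difference after the mixture was found for 58 of the 102 genes called in controls, 182 of the 327 called after genistein and 92 of the 328 called after vinclozolin.

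**Figure D4:**
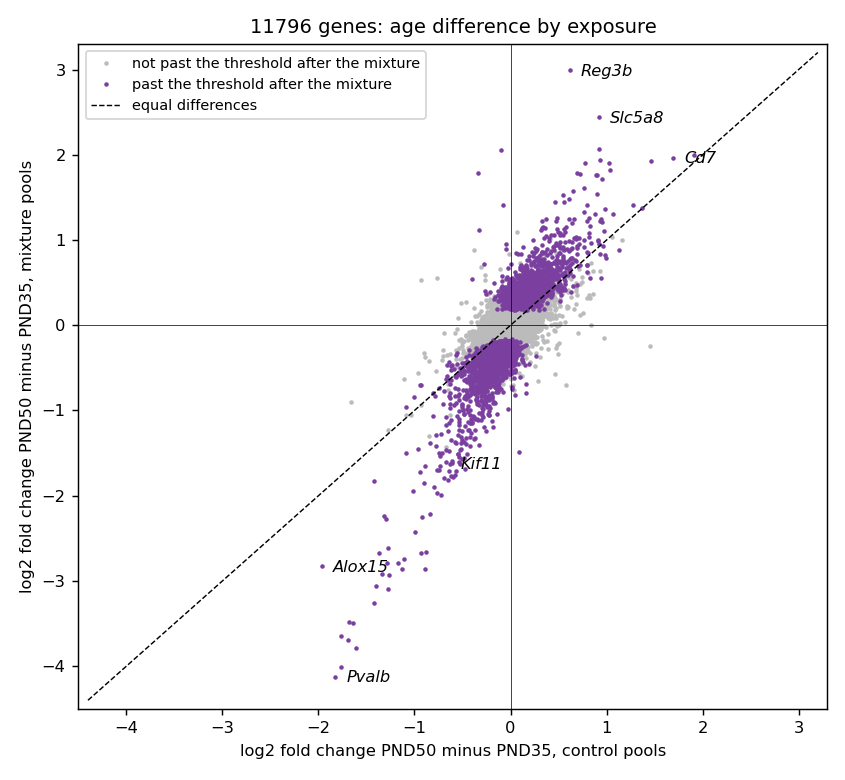
Log2 fold change between PND50 and PND35 of 11796 genes, after the mixture (vertical axis) and in controls (horizontal axis), with genes past the threshold after the mixture in purple. Reg3b and Slc5a8 lie far above the line of equal differences, Pvalb far below it, and Cd7 near it.

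The difference of the differences, mixture minus control, passed for 0 of 11796 genes (limma, smallest adjusted p 0.139, with 1435 genes at an unadjusted p under 0.05 where 590 are expected by chance). Its median standard error was 0.133. In simulated data with 200 changed genes, 88% of log2 differences of 1 and 24% of 0.5 were recovered. So even there smaller differences were mostly not detectable with 2 pools a group. The simulated noise was drawn for each gene apart, without shifts shared by a pool. In the real data a difference of 2.38 did not pass, so the simulated recovery cannot be carried over. That 0 genes passed does not show that differences of 1 or more were absent. Without mixture PND35 replicate 1, 8 genes passed. The genes named next had the smallest p among those past a set fold difference, without placeholder symbols, and did not pass. Reg3b and Slc5a8 did not have the smallest p of all genes tested. Reg3b had a log2 difference of 2.38 (SE 0.41, adjusted p = 0.205), with control values of 6.40 and 6.06 at PND50 and 5.60 and 5.63 at PND35. Slc5a8 had a difference of 1.52 (SE 0.27, adjusted p = 0.205), with control values of 8.51 and 8.59 at PND50 and 7.57 and 7.68 at PND35. In both genes the PND50 mixture pools stood above the PND50 control pools. Reg3b values of the PND35 mixture pools stood below those of the PND35 control pools. All these PND35 values of Reg3b lie under the filter value of 5.661, where background may hold a value up, so their order is uncertain.

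Lcp2, an adaptor of T cell receptor signalling, differed mainly at the earlier age. Mixture pools had 9.56 and 9.73 at PND50 and control pools 9.53 and 9.5, while at PND35 mixture pools had 8.84 and 8.74 and control pools 9.41 and 9.5. Its difference of the differences was 0.80 and did not pass. The others of smallest p under that rule were Pex6, a peroxisomal ATPase (0.76), and the olfactory receptor Or2v2b (0.62) on the higher side. On the lower side they were Nudcd2 (-0.73), the RNA export factor Alyref (-0.70) and Tyms (-0.68). The nuclear lamin Lmnb1 (-0.68) and Rpa1, which binds single-stranded DNA (-0.65), were on that side too. Cd7 had similar differences, 1.97 after the mixture and 1.70 in controls. For the mitosis list the median log2 fold change was -1.43 after the mixture, -0.53 in controls, -0.74 after genistein and 0.12 after vinclozolin. The control value rests on 1 pool: with replicate 1 of the PND50 controls left out it was -0.16, and with replicate 2 left out it was -0.93, in fits added after the data were seen. The mitosis scores of these pools were -0.627 and 0.084. At PND35 the scores were -0.232 and 0.337 after vinclozolin and 0.017 and 0.604 after genistein. The medians of these 2 exposures therefore also depend on single pools. For the luminal list the median log2 fold change was 0.62 after the mixture, 0.43 in controls, -0.05 after genistein and 0.27 after vinclozolin. For the T and natural killer list it was 0.42 after the mixture, 0.29 in controls, 0.41 after genistein and 0.32 after vinclozolin, which was the most even of these lists.

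Set against the mean of the other 3 exposures, the mixture's age difference passed for 122 genes (1.03%), 78 higher (0.661%) and 44 lower (0.373%). The count ran from 5 without mixture PND50 replicate 2 to 361 without genistein PND35 replicate 2. Reg3b was 2.48 higher (SE 0.33, adjusted p = 0.0122) and Slc5a8 1.90 higher (SE 0.22, adjusted p = 0.00435). Cd14 was 0.79 higher (SE 0.13), Lalba 0.89 higher (SE 0.14) and Vtcn1 1.21 higher (SE 0.20), each with an adjusted p of 0.0237. Cd14 had 10.35 and 10.44 in PND50 controls and 10.26 and 10.27 in PND35 controls, a difference of 0.13. Kif11 was -1.22 (SE 0.24, adjusted p = 0.0354), Racgap1, which acts in cytokinesis, -0.86, and E2f1, a transcription factor of S phase entry, -0.73.

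This mean holds the vinclozolin PND35 pools, in which hair follicle keratins were high. Krt25, which builds the inner root sheath, had 5.25 and 5.23 in mixture PND50 pools and 5.36 and 4.86 in mixture PND35 pools, but 5.03 and 5.15 in vinclozolin PND50 pools and 10.48 and 10.59 in vinclozolin PND35 pools. Its mixture difference was 0.13 and its vinclozolin difference -5.45, and it passed as 1.97 higher in the mixture. Its mixture values lay under the filter, which it passed through the vinclozolin PND35 pools. Against the mean of controls and genistein alone, an alternative added after the data were seen, no gene passed (limma, smallest adjusted p 0.0577 for Slc5a8, and 1691 genes at an unadjusted p under 0.05). There Reg3b was 2.37 higher (adjusted p = 0.0723) and Cd14 0.84 higher (adjusted p = 0.0828). Of the 122 genes, 2 changed sign.

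**Figure D5:**
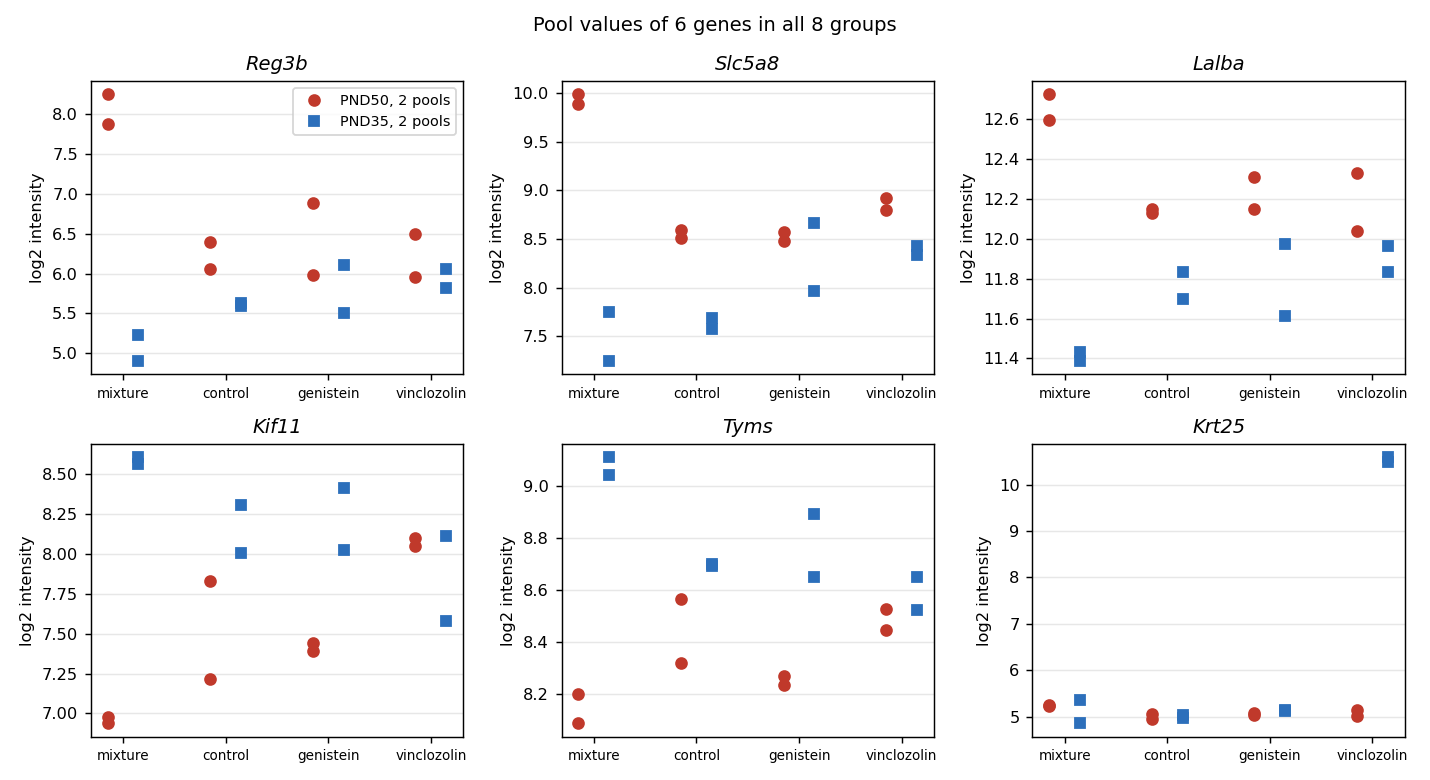
Log2 intensity of 6 genes in all 16 pools, PND50 (circles) and PND35 (squares), by exposure. Reg3b, Slc5a8 and Lalba have their widest age gap in the mixture pools, and Krt25 is high in the vinclozolin PND35 pools alone.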

How the data were processed

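The labels' protocols state that total RNA was extracted from individual glands, pooled from 5 animals per array and labelled with biotin for Affymetrix arrays. The authors deposited a table of log2 values, 1 per probe set (27342) and array (16), made from scanned intensities by steps that no label or header names. Its scale was taken from the values, which run from 2.2 to 13.9. Log base, background correction, normalization and summarization have no stated source. No detection calls were used, so dim probe sets were judged by value alone.

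The platform annotation lists 15420 probe sets, of which 15097 carry a single symbol and 323 carry several. The remaining 11922 stay unnamed here. Symbols were updated through RefSeq (GRCr8) for 15067, and 30 kept the annotation's symbol. For the 499 of 14324 symbols with several probe sets the brightest was kept. Genes with a mean under the 25th percentile (5.661) were left out, leaving 11796. Promoter sequences are RefSeq's, for GRCr8.

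Tests used limma 3.58.1 in R 4.3.3 (lmFit, eBayes) with 1 mean per group over all 16 arrays and 8 residual degrees of freedom. They were two-sided, Benjamini-Hochberg adjusted over all genes, with a threshold of 0.05. The titles call the 2 pools of a group biological replicates, without naming the animals in each. Same-numbered pools of different groups did not deviate together: over 28 pairs of groups the correlation had a median of 0.0351 (from -0.366 to 0.301) and was over 0.1 in 8, and it was -0.0761 between the mixture ages, so the numbers were not treated as pairs.

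The comparison and the 27 gene lists (483 genes) were chosen with earlier results of these data known. Named genes are the 12 highest and 12 lowest genes that passed and had no overlap between ages, without placeholder symbols. Up to 4 per list by smallest p and a fixed panel were added. So were the extremes of each difference or, where too few passed, those of smallest p past a set fold difference. Other list members given by value were chosen after their values were seen. Kit, Cidea and Atf3 stand in 2 lists. Tests on simulated data used the size of the noise measured here for each gene. They recovered 58.5% of the genes changed by 0.5 (log2) and 96% of those changed by 1 between the mixture ages. The noise was drawn for each gene apart, so shifts shared by a pool were not simulated. Alternatives were other filters, normalizations, probe set rules, a replicate block, array weights, a muscle score covariate, fits on fewer arrays, and leaving out single pools. Figures were drawn with matplotlib 3.10.9.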

Additional observations from a re-analysis of the deposited data

Results flagged for a closer look

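These 12 genes had an age difference after the mixture that differed from the mean of the other 3 exposures in a direct test (limma, adjusted p under 0.05), and are the 6 highest and 6 lowest of the 122 that did. Reg3b was 2.48 higher on the log2 scale, Slc5a8 1.9 higher and Kng2, a kininogen, 2.28 higher. Kng2 had 7.67 and 7.84 at PND50 after the mixture, against 6.45 and 5.49 at PND35, and its age difference was -1.61 after vinclozolin. Krtap15-1, Krt25 and Krt73, genes of the hair, were 2.42, 1.97 and 1.63 higher. Their vinclozolin age differences were -5.16, -5.45 and -4.29, and their mixture age differences of 0.40, 0.13 and 0.27 did not pass. Krtap15-1 (means 5.61 and 5.20) and Krt25 (5.24 and 5.11) lay under the filter value of 5.661 in the mixture pools. They were admitted through the vinclozolin PND35 pools, which the test also used, so their passing says nothing about the mixture. Pvalb was -2.99, Kif11 -1.22, Pla1a, a phospholipase, -0.92, Racgap1 -0.86, Mmd2 -0.85 and E2f1 -0.73. The muscle score that moved with Pvalb is given above, and its part in the other genes was not tested gene by gene. Against the mean of controls and genistein alone none of the 12 passed, with adjusted p-values from 0.0577 for Slc5a8 to 0.742 for Krt73.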

How the results depend on the processing

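The age difference after the mixture was called for 3174 to 4568 genes under the other filters, normalizations, probe set rules, array weights, trend and reduced array sets, and for 6362 of 20506 probe sets when unnamed ones were kept. With single pools left out it ranged from 1596 to 4174. With the muscle score as covariate it was 0, and of the 3852 genes 242 changed sign. Among the 162 genes with full values, 129 were called. With the covariate 8 of them turned sign, Ttn at 0.055, Myh1 at 0.094, Pygm at 0.165, Ckm at 0.143, Mrgprx2 at -0.149, Elane at -0.034, Cox8b at 0.484 and Cpt1b at 0.27, and the other 121 lost the call. The score and age overlap in these pools, which limits that fit. Leaving out 1 mixture pool cost 24 to 32 of the 129 calls and reversed none. The difference from controls passed for 2 genes with no filter on dim genes and for 0 to 8 with single pools left out, 8 of them without mixture PND35 replicate 1, and for 0 under the other settings run. The difference from the mean of the other exposures passed for 207 probe sets when unnamed ones were kept, 279 genes with array weights, 1 with the muscle score, 0 against the mean of controls and genistein only, and 5 to 361 with single pools left out (5 without mixture PND50 replicate 2, 361 without genistein PND35 replicate 2). The cause was not tested. With the replicate block the counts were 3841, 0 and 120 for the mixture, the difference from controls and the difference from the other exposures. Of the 129 calls the block lost 3 and it gained 3. Values near the filter limit the size of low differences, and fits without a pool assume that the lone pool varies like the other groups.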

Other observations

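Some genes outside the lists, chosen after their values were seen, differed between the ages of the mixture-exposed gland. The 3 subunits of the epithelial sodium channel were all higher at PND50. Scnn1b had 10.84 and 10.91 at PND50, against 9.10 and 9.11 at PND35, and rose by 1.77 (SE 0.23). Scnn1g rose by 1.57 (SE 0.22) and Scnn1a by 0.75 (SE 0.14). In controls the log2 fold changes were 0.72, 0.65 and 0.59 for Scnn1b, Scnn1g and Scnn1a, and the difference from controls did not pass for any of them (adjusted p 0.311, 0.331 and 0.776).

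Another 4 genes chosen in this way were higher at PND50 too. Lbp, which presents lipopolysaccharide to Cd14, had 12.95 and 12.97 at PND50, against 11.21 and 11.18 at PND35, and rose by 1.77 (SE 0.17). Cx3cr1, the fractalkine receptor of macrophages and natural killer cells, had 8.40 and 8.57 at PND50, against 6.78 and 6.97 at PND35. Mmp12, the macrophage elastase, rose by 1.72 (SE 0.22) and Chi3l1, a chitinase-like protein, by 1.48 (SE 0.27). Against the mean of the other 3 exposures Lbp (1.09 higher, adjusted p = 0.0302) and Cx3cr1 (1.00 higher, adjusted p = 0.049) passed. Mmp12 (adjusted p = 0.0578) and Chi3l1 (adjusted p = 0.073) did not. That mean holds the vinclozolin PND35 pools. Against controls and genistein alone, Lbp (1.02 higher, limma adjusted p = 0.101) and Cx3cr1 (0.96 higher, adjusted p = 0.139) did not pass. The difference from controls passed for none of the 4 genes.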
